A study of Mus musculus with 57 samples.

Results

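The genes described here are the splicing regulators and neuronal RNA-binding families of the mouse: the SR proteins (Srsf), the heterogeneous nuclear ribonucleoproteins (Hnrnp), Tra2a and Tra2b, Ptbp1 and Ptbp3, and the Celf, Elavl, Rbfox, Nova and Mbnl families. They were chosen by gene symbol, with a minimum of 35 normalised reads in at least 3 libraries. All 53 genes whose symbols matched passed that minimum, out of 45337 genes in the table. They comprised 20 Hnrnp genes, 11 Srsf, 6 Celf, 4 Elavl, 3 Rbfox, 3 Mbnl, 2 Nova, 2 Tra2 and 2 Ptbp genes. No matching symbol fell outside the minimum, and the gene closest to it was Srsf4, which reached 35 reads in 33 of 57 libraries. Celf6 and Mbnl3 reached it in 56 libraries each, and the other genes in all 57.

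The study profiled RNA from the brains of mice carrying the Sod1G86R transgene, a mutant form of superoxide dismutase 1 used to model amyotrophic lateral sclerosis (ALS), and of wild-type mice. Each library came either from corticospinal neurons (CSN), the cortical output neurons that degenerate in ALS, or from what the labels name control cells. Wild-type CSN were sampled at 30, 60, 90 and 105 days in 4, 4, 4 and 4 libraries (n = 16), and Sod1G86R CSN in 3, 4, 4 and 2 (n = 13). Wild-type control cells had 4, 2, 4 and 4 libraries (n = 14) and Sod1G86R control cells 3, 3, 4 and 4 (n = 14). The sources used here do not give the strain background, the sex of the mice, the isolation of the cells, the promoter of the transgene or the cell types meant by control cells. The labels do not say that libraries came from separate animals, so p-values measure the spread between these samples, which may in part be technical.

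These proteins decide which parts of a primary transcript are kept in the messenger RNA. SR proteins and the related Tra2 proteins bind enhancer sequences in exons and recruit the splicing machinery, many hnRNPs bind as repressors or package the transcript, and the PTB proteins bind pyrimidine tracts and silence exons that neurons use. The Celf, Elavl, Rbfox, Nova and Mbnl families add cell-type-specific decisions. Several of their members are enriched in neurons, where they act on splicing in the nucleus and on the stability or translation of messenger RNA in the cytoplasm. Ptbp1 is known to give way to its neuronal paralogue Ptbp2 when cells become neurons. Mutations in several hnRNPs are linked to ALS.

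Libraries held 22.2 to 64.2 M reads. The mean was 32.3 ± 6.88 M in wild-type and 40.7 ± 10.3 M in Sod1G86R CSN (SD). In control cells of these genotypes it was 42.2 ± 8.14 M and 34.2 ± 7.93 M. The deposited values are read counts divided by 1 size factor per library, called normalised reads below. Sod1, the check of the genotype labels, stood at 118702 ± 22748 normalised reads in Sod1G86R CSN against 3230 ± 951 in wild-type CSN (SD). In control cells it stood at 95962 ± 32270 against 3018 ± 790. Of 12 corticospinal marker genes, 12 were higher in CSN than in control cells of wild-type mice, among them Bcl11b at 10678 ± 2016 against 244 ± 230 and Fezf2 at 7569 ± 1609 against 233 ± 159. All 9 upper-layer markers and all 12 oligodendrocyte markers were lower in CSN. No marker was at 0 in all libraries of a group: the summed oligodendrocyte markers of wild-type libraries ranged from 4824 to 327819 in CSN and from 129965 to 2216869 in control cells. Control cells held both neuronal and glial RNA, and their summed level of 8 pan-neuronal markers, 1 of which is Rbfox3, ranged from 75884 to 418500 against 276869 to 446172 in wild-type CSN. The share of reads on mitochondrial genes was 9.41% ± 2.92 in wild-type and 5.95% ± 2.31 in Sod1G86R CSN, and 1.44% ± 0.56 and 1.90% ± 0.739 in the control cells of these genotypes.

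Celf5 and Hnrnpc stood for the 2 directions of the genotype difference in CSN described below, Celf5 lower and Hnrnpc higher in Sod1G86R, and their upstream sequences are printed to set them side by side. Celf5 lies at chr10:81459227-81482709 on the minus strand and Hnrnpc at chr14:52073377-52104028 on the minus strand (GRCm38). The sequences are the RefSeq promoter windows (GRCm38.p6) up to the first base of the annotated gene, chr10:81482710-81482949 and chr14:52104029-52104271, both 5′ to 3′ on the minus strand. Capitals mark the GC box (GGGCGG, either strand) and the CCAAT box (CCAAT, either strand), motifs that were picked after the sequences were seen.
Celf5: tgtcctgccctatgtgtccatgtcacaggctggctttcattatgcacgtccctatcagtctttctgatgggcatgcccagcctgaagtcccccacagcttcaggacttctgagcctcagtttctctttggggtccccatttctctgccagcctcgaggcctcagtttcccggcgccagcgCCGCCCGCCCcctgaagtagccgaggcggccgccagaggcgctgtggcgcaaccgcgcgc
Hnrnpc: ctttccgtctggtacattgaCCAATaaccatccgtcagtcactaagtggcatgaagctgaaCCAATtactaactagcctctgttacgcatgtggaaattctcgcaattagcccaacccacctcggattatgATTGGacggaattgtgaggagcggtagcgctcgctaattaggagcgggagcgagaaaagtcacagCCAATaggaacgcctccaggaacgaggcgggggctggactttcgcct
The Celf5 window held 2 overlapping GC box matches and 0 CCAAT matches, and the Hnrnpc window 4 CCAAT matches and 0 GC box matches. Of 27026 RefSeq promoter windows cut to the 240 bases of the Celf5 window, 31.57% held a GC box match and 33.67% a CCAAT match. At the 243 bases of the Hnrnpc window the shares were 32.01% and 33.95%. These matches describe the letters of the windows.

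Within families, levels were compared per kb of exon. In wild-type CSN the Elavl family, the Hu proteins that bind AU-rich RNA, was mostly Elavl4 (HuD), with 62.4% ± 4.80 of the family's summed level per kb (SD, n = 16). Elavl2 (HuB) made up 18.3% ± 2.58 and the ubiquitous member Elavl1 (HuR) 4.28% ± 1.03. In wild-type control cells Elavl1 made up 16.1% ± 5.71 and Elavl2 10.1% ± 3.22 (n = 14), and for both genes the means in the cell types lay further apart than the sum of their SDs. The Rbfox share per kb of Rbfox1 in wild type was 54.4% ± 3.95 in CSN and 73.1% ± 6.24 in control cells, while that of Rbfox3, the NeuN antigen, was 33.9% ± 4.01 and 20.4% ± 5.63. Rbfox proteins bind GCATG-type elements beside alternative exons. Of the Nova pair, which bind clusters of short pyrimidine-rich elements, Nova2 held 28.5% ± 7.45 of the level per kb in wild-type CSN, 22.2% ± 5.89 in Sod1G86R CSN and 9.34% ± 3.35 in wild-type control cells.

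Of the Celf family, which binds GU-rich RNA, Celf4 held 38.4% ± 6.41 of the level per kb in wild-type CSN and the broadly expressed Celf1 15% ± 2.02. In wild-type control cells Celf1 held 27% ± 3.59. The share of Celf5 was 9.33% ± 2.76 in wild-type and 7.14% ± 2.09 in Sod1G86R CSN, and that of Celf6 4.46% ± 1.25 and 2.88% ± 0.863. Mbnl2, of the muscleblind family whose loss from the nucleoplasm by expanded repeats underlies myotonic dystrophy, held 82.9% ± 2.24 of its family's level per kb in wild-type CSN, as against 80.0% ± 5.79 in wild-type control cells. Tra2a held 54.2% ± 5.15 of the Tra2 level per kb in wild-type CSN, as against 30.2% ± 5.04 in wild-type control cells. By level per kb over all 53 genes, Srsf7 (2764), Srsf5 (2303) and Elavl4 (2170 normalised reads per kb) stood highest in wild-type CSN.

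**Figure D1:**
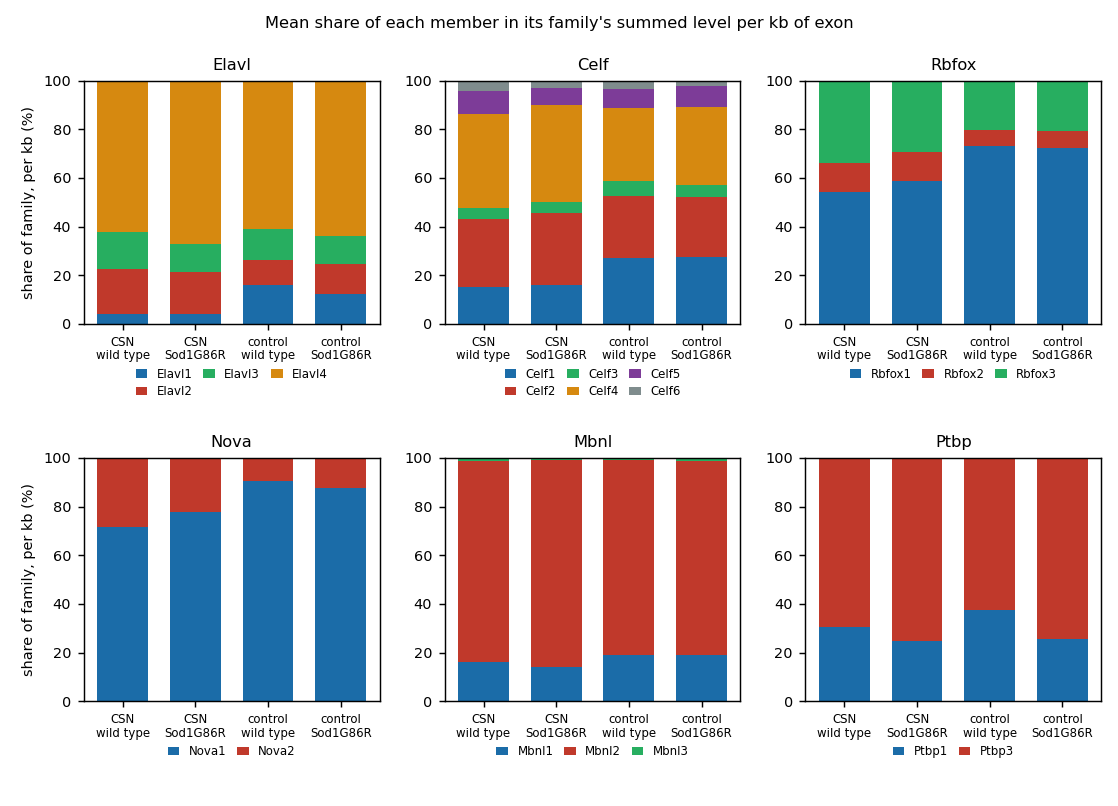
Mean share (%) of each gene in the summed level per kb of exon of its family, for 6 families, with 1 bar per cell type and genotype (n = 16, 13, 14 and 14 libraries from left to right). Elavl1, Celf1, Rbfox1 and Nova1 took larger mean shares in control cells, and Elavl2, Rbfox3 and Nova2 larger shares in CSN.

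In the stacked bars of family shares, the control-cell bars of the Elavl, Celf, Rbfox and Nova families differ from the CSN bars mainly at the bottom, where the first-numbered paralogue stands. The Mbnl bars look alike across the 4 groups. The spread between libraries around these means is given in the sentences above.

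The first comparison asked how levels differed between the cell types in wild-type mice. Of 53 genes, 38 differed (71.7%), with 16 higher and 22 lower in CSN, where 56.3% of the 22032 genes tested differed (26.8% higher and 29.5% lower). The test was limma on log2 values with a pseudocount of 34.6 normalised reads, Benjamini-Hochberg adjusted over all genes, with calls at an adjusted p under 0.05. Of the Celf genes 4 of 6, of the Elavl genes 3 of 4 and of the Rbfox genes 2 of 3 were higher in CSN, 1 Elavl gene was lower, and no Celf or Rbfox gene was lower. Of 11 Srsf genes 6 were lower and 0 higher, and with quantile normalisation 4 were lower and 2 higher. Of 20 Hnrnp genes, 5 were higher and 9 lower. Both Ptbp genes and 2 of 3 Mbnl genes were lower, and the Nova and the Tra2 pair each split into 1 higher and 1 lower. The median log2 difference was -0.20 over the 53 genes and -0.03 over all genes tested.

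Elavl2 was the gene furthest to the CSN side, with 3520, 5293 and 6882 normalised reads as the lowest, median and highest wild-type CSN library and 505, 1151 and 2537 in wild-type control cells. Every wild-type CSN library stood above every wild-type control library. The log2 difference was 2.02 (SE 0.185, limma adjusted p = 2.9e-13), or 4.05-fold on the scale of value plus pseudocount. Nova2 had 366, 704 and 1267 normalised reads in wild-type CSN and 69.4, 276 and 502 in control cells. The ranges overlapped, and all 16 CSN libraries lay above the mean of all wild-type control libraries, with a log2 difference of 1.37 (SE 0.17, limma adjusted p = 1.74e-09). For Elavl3 (HuC) the values were 2071, 3311 and 4858 against 591, 1372 and 2354. That gene's ranges overlapped at their ends, and its log2 difference was 1.31 (SE 0.142, limma adjusted p = 4.28e-11).

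Elavl4 followed at a log2 difference of 1.21, with 11690 ± 2032 normalised reads in wild-type CSN and 5565 ± 1888 in control cells, and its groups did not overlap. Rbfox2 differed by 1.13 and Rbfox3 by 1.06 on the log2 scale. Rbfox1, the third paralogue, did not pass, at 7751 ± 1168 in CSN against 8768 ± 2857 in control cells. Of the Celf genes, Celf6 (1.02), Celf4 (0.99), Celf5 (0.97) and Celf2 (0.81) were higher in CSN. Celf1 (4833 ± 673 against 5961 ± 1889) and Celf3 (920 ± 416 against 819 ± 499) did not pass. Celf2 had 27843 ± 2133 normalised reads in CSN and 17113 ± 5543 in control cells, and Celf4 12830 ± 3372 and 6625 ± 1863.

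Hnrnpk, which binds C-rich RNA and DNA, lay furthest to the control side, with 5526, 7671 and 13866 normalised reads in wild-type CSN and 8976, 21339 and 43507 in control cells. Most control libraries were above the CSN range, with some overlap, and the log2 difference was -1.61 (SE 0.166, limma adjusted p = 9.51e-12). Ptbp1 had 115, 304 and 656 normalised reads in CSN as against 82.4, 624 and 1954 in control cells. Its control libraries spanned the whole CSN range, and the log2 difference was -1.01 (SE 0.23, limma adjusted p = 0.000195). Tra2b had 2770, 3267 and 4024 in CSN against 4948, 6013 and 7901 in control cells. The groups of Tra2b did not overlap, and its log2 difference was -0.96 (SE 0.0967, limma adjusted p = 6.13e-12).

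Hnrnpa2b1, a prion-like hnRNP with ALS-linked mutations, was lower in CSN by 0.93 on the log2 scale (-0.93), with 9842 ± 1666 normalised reads against 18628 ± 2794 and no overlap. Hnrnpab (-0.93) and Hnrnpf (-0.88), which binds G-rich RNA, completed the 6 largest differences on the control side. Elavl1, unlike its 3 neuronal relatives, was lower in CSN (1524 ± 326 against 2637 ± 786, log2 difference -0.80), as were Nova1 (1816 ± 317 against 2765 ± 924, -0.50), Ptbp3 (1105 ± 213 against 1590 ± 538, -0.47), Mbnl1 (3196 ± 434 against 5198 ± 1140, -0.66) and Mbnl2 (10752 ± 1833 against 14323 ± 2891, -0.43). Mbnl3, at 105 ± 24.7 and 113 ± 72.9, did not pass. Tra2a was higher in CSN (2927 ± 523 against 2003 ± 362, log2 difference 0.54). Groups of 4 genes did not overlap at all, which is 7.55% of the 53 against 4.38% of all genes tested. In Sod1G86R mice the share was 1.89% (1 gene, Elavl3) against 5.74%.

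**Figure D2:**
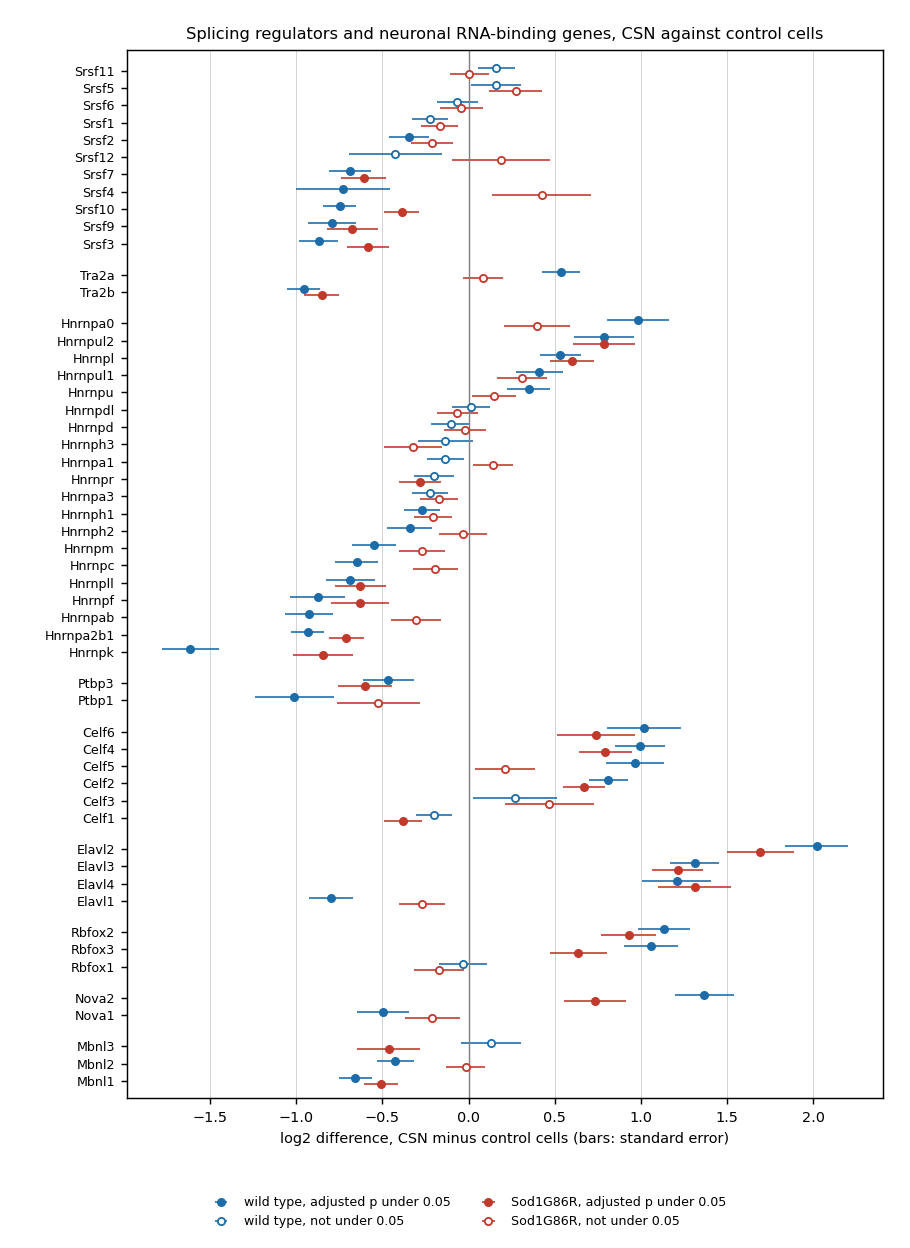
Log2 difference between CSN and control cells for each of the 53 genes, ordered within families, in wild type (blue) and Sod1G86R (red), with bars for the standard error and filled points for an adjusted p under 0.05. Elavl2 lies furthest right (2.02 in wild type) and Hnrnpk furthest left (-1.61).

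In Sod1G86R mice the same comparison called 25 of 53 genes (11 higher and 14 lower), where 55.5% of all genes tested differed (24.9% higher and 30.6% lower). In the plot of cell type differences the red points lie nearer to 0 than the blue ones for Hnrnpk (-0.84), Nova2 (0.73) and Celf5 (0.21, adjusted p = 0.316 by limma). The test of such differences between genotypes is given below. In these bulk libraries fewer cells of a type and less RNA per cell cannot be told apart. Glial marker level and mitochondrial share moved with cell type: glial markers (astrocyte, oligodendrocyte and microglial, mean on the log2 scale) stood at 9.54 ± 0.80 in CSN of wild-type mice, and in their control cells at 12.44 ± 0.962. With glial level as a covariate 16 of the 53 genes were called in wild type and 7 in Sod1G86R. Of all genes tested, 13.1% and 11.2% were called. Of the 16, 14 were among the 38 called without it. With mitochondrial share 9 were called in wild type, 6 of them among the 38, against 23.5% of all genes. Under that covariate Hnrnpk stood at 0.033 and Hnrnpab at 0.050. The part of both measures in the cell type differences was not otherwise tested.

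The second comparison asked how Sod1G86R CSN differed from wild-type CSN, as the mean over the 4 ages. Of 53 genes, 10 passed (18.9%), 4 higher and 6 lower in Sod1G86R, where 19.1% of the 19093 genes tested passed (12.8% higher and 6.31% lower). The genes that fell were Celf6, Celf5, Hnrnpul1, Tra2a, Hnrnpl and Srsf6, and those that rose were Hnrnpk, Hnrnpc, Elavl4 and Mbnl2. The largest fall was 1.71-fold (Celf6) and the largest rise 1.41-fold (Hnrnpk), on the scale of value plus pseudocount. By family, 2 of 6 Celf genes fell, 2 Hnrnp genes rose and 2 fell of 20, and 1 of 11 Srsf genes fell. No Rbfox, Nova or Ptbp gene passed in this fit. Rbfox3 was called with quantile normalisation, TMM scaling, a stricter filter, a replicate block, edgeR and DESeq2. Nova2 was called with edgeR and DESeq2, and Rbfox1 with quantile normalisation. The median log2 difference was -0.03 over the 53 genes and -0.05 over all genes tested. With quantile normalisation the split was 0 higher and 17 lower, where 14% of all genes passed, so this result depended on the normalisation.

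Celf6, a neuronal Celf protein, lies at chr9:59577917-59607292 on the plus strand. It had 338, 560 and 890 normalised reads as the lowest, median and highest wild-type CSN library and 208, 330 and 515 in Sod1G86R CSN. The ranges overlapped, and 13 of 13 Sod1G86R libraries lay below the mean of all wild-type CSN libraries, taken over the ages. The log2 difference was -0.78 (SE 0.133, limma adjusted p = 0.000351). Celf5, its close paralogue, had 1481, 2037 and 4858 in wild type and 1069, 1436 and 2689 in Sod1G86R. Of the 13 Sod1G86R libraries of Celf5, 11 were below the mean of all wild-type libraries, the 2 exceptions being 60-day libraries at 2689 and 2630. Its log2 difference was -0.61 (SE 0.13, limma adjusted p = 0.00182).

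Hnrnpul1, at chr7:25721165-25754757 on the minus strand, is a relative of the nuclear scaffold protein hnRNP U that also acts in the response to DNA breaks. It had 561, 832 and 1216 normalised reads in wild-type CSN and 460, 634 and 771 in Sod1G86R CSN. All 13 Sod1G86R libraries lay below the mean of all wild-type libraries although the ranges overlapped, and the log2 difference was -0.49 (SE 0.102, limma adjusted p = 0.00157). Tra2a (-0.34), Hnrnpl (-0.28), which binds CA repeats, and Srsf6 (-0.25) fell less, with adjusted p = 0.0143, 0.0274 and 0.0364 by limma. Their Sod1G86R libraries lay below the mean of all wild-type libraries in 11, 10 and 11 of 13 cases.

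Hnrnpk, at chr13:58391142-58403343 on the minus strand, had 5526, 7671 and 13866 normalised reads in wild-type CSN and 5056, 10284 and 17016 in Sod1G86R CSN. The lowest Sod1G86R library was below all wild-type libraries and 11 of 13 were above the mean of all wild-type libraries. The log2 difference was 0.50 (SE 0.146, limma adjusted p = 0.0177). Hnrnpc, which binds uridine tracts, had 3152, 5280 and 6888 in wild type and 4336, 6631 and 9580 in Sod1G86R. The ranges of Hnrnpc overlapped widely, with 10 of 13 libraries above the mean of all wild-type libraries, and its log2 difference was 0.38 (SE 0.116, limma adjusted p = 0.0216).

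Elavl4, at chr4:110203722-110351909 on the minus strand, encodes HuD, which stabilises messenger RNAs in neurons. It had 8461, 11782 and 14181 normalised reads in wild-type CSN and 10745, 13945 and 22101 in Sod1G86R CSN. Sod1G86R libraries above the mean of all wild-type libraries numbered 12 of 13, and the log2 difference was 0.36 (SE 0.104, limma adjusted p = 0.0161). Mbnl2 rose by 0.29 (SE 0.0947, limma adjusted p = 0.0292), from 10752 ± 1833 to 13155 ± 2331 normalised reads. None of the 53 genes had all Sod1G86R libraries on one side of all wild-type libraries, and 0.0408% of all genes tested did.

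**Figure D3:**
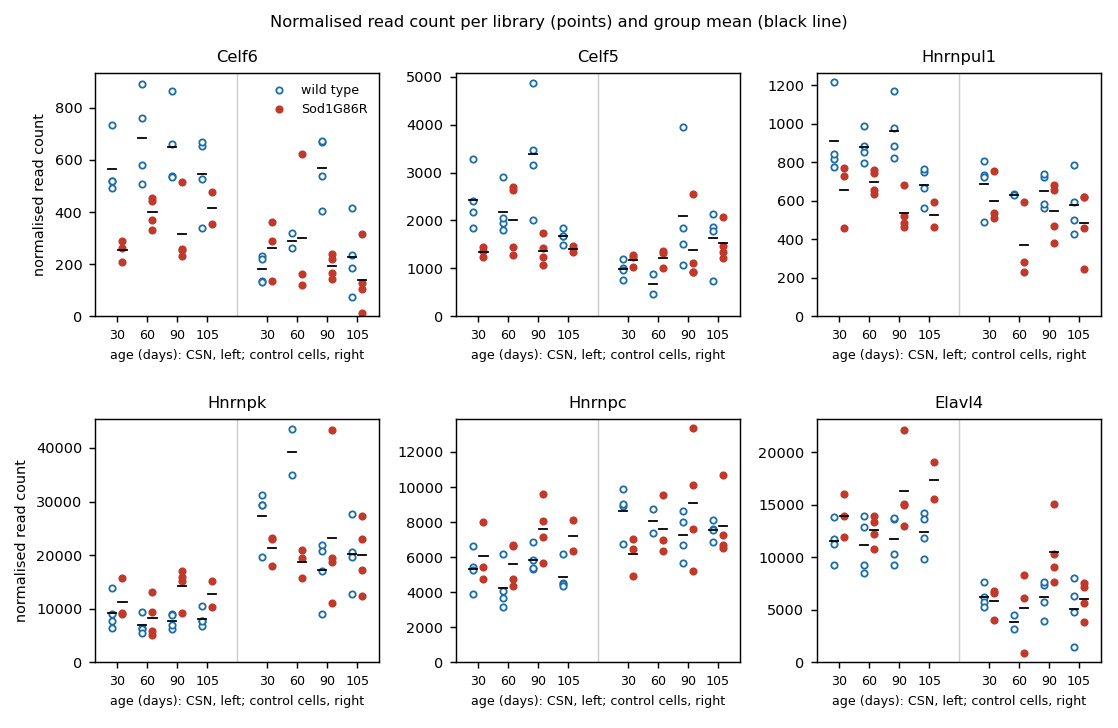
Normalised read count in each library (points) and the group mean (black line) of 6 genes by age in days, for CSN on the left and control cells on the right of each panel, with open blue points for wild type and filled red points for Sod1G86R. In CSN the red points of Celf6 at 30 days (208 to 289) lie below the blue ones (494 to 733), and at 90 days those of Hnrnpk (9231 to 17016) lie above (6297 to 9038).

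In the plot of single libraries the CSN genotypes did not overlap for Celf6 and Hnrnpul1 at 30, 60 and 90 days, for Celf5 at 30, 90 and 105 days, for Hnrnpk at 90 days, and for Hnrnpc and Elavl4 at 105 days. At the other ages of these genes the CSN points overlapped. In control cells the points overlapped at every age for Hnrnpc and Elavl4. Those of Celf6 were apart at 90 days, and those of Celf5, Hnrnpul1 and Hnrnpk at 60 days, where wild type had 2 libraries. These genes were picked for their genotype difference in the same CSN libraries. The share of all genes apart at a single age was not counted, and groups this small can separate by chance. Separations at single ages, here and below, are therefore a description and lend the calls no weight.

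Mitochondrial share also differed between the CSN genotypes, and across the 29 CSN libraries, after removal of group means, it was correlated with several of these genes. Pearson's r was -0.61 for Hnrnpk, -0.60 for Hnrnpc, -0.59 for Elavl4 and 0.58 for Celf5, against 0.38 for Celf6 and 0.11 for Hnrnpul1. These values are a description, since all genes of a library share its sequencing depth and composition, which differed between libraries. With mitochondrial share as a covariate 0 of the 53 genes were called, and 25 of all genes tested (0.131%). Under that covariate Celf6 stood at -0.60 (limma adjusted p = 0.186) and Hnrnpk at 0.13 (0.848). The glial marker level of these libraries was 8.87 ± 0.793 on the log2 scale for Sod1G86R, with 9.54 ± 0.80 for wild type. The summed oligodendrocyte markers had a median of 34297 normalised reads against 76813, and the microglial ones 3580 against 7612, with overlapping ranges. With glial level as a covariate 7 of the 10 genes were called, and Elavl4 (limma adjusted p = 0.063), Mbnl2 (0.127) and Hnrnpl (0.111) were not. Of all genes tested, 13.4% were called with it. The part of glial level and mitochondrial share in these differences was not otherwise tested. Without the 90-day libraries 1 gene was called, Celf6, at -0.70 (limma adjusted p = 0.012), against 6.07% of all genes. Without the library labelled Sod1G86R CSN 105 days replicate 13, 4 genes were called, 0 higher and 4 lower.

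The same residuals gave the correlation between genes. Over 1378 pairs of the 53 genes the median r was 0.05, with a range from -0.78 to 0.84. Hnrnpk and Hnrnpc, both higher in Sod1G86R, had r = 0.81 over the 29 libraries. Celf5 and Celf6, both lower, had r = -0.004, and Celf5 and Hnrnpk had r = -0.48. Genes of like direction could thus follow each other closely or not at all across single libraries.

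At single ages the genotype difference in CSN passed for 6 genes at 90 days, all lower in Sod1G86R (11.3% of 53, against 4.86% of all genes tested, 3.48% higher and 1.38% lower). No gene of the 53 passed at 30, 60 or 105 days, where 0.0157%, 0.0314% and 0.021% of all genes passed by limma and 6, 3 and 3 of the 53 had an unadjusted p under 0.05. At these ages edgeR and DESeq2 also called 0 of the 53. Celf5 had 3167, 2017, 3465 and 4858 normalised reads in the 4 wild-type libraries at 90 days and 1436, 1069, 1237 and 1735 in the 4 Sod1G86R libraries. The groups did not overlap, and the log2 difference was -1.24 (SE 0.24, limma adjusted p = 0.0225). Celf6 had 662, 864, 539 and 535 against 253, 260, 232 and 515. Of its Sod1G86R libraries 3 lay close together and replicate 8 stood just under the wild-type values, with a log2 difference of -1.01 (SE 0.247, limma adjusted p = 0.0241).

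Hnrnpul1 at 90 days had 822, 887, 1171 and 981 normalised reads in wild type against 485, 467, 520 and 685 in Sod1G86R, a separation without overlap (-0.80, SE 0.188, limma adjusted p = 0.0236). Nova2 passed at this age, and in the mean over ages not by limma but with edgeR and DESeq2. It had 802, 723, 1016 and 1267 against 503, 605, 530 and 573. Its groups did not overlap either (-0.72, SE 0.182, limma adjusted p = 0.0265). Rbfox3 was similar in pattern, with 6778, 5594, 9922 and 8960 against 4003, 4753, 4507 and 5759. The lowest wild-type library of Rbfox3 lay just under the highest Sod1G86R library (-0.69, SE 0.195, limma adjusted p = 0.0401). Tra2a had 3516, 2904, 3106 and 3297 against 1967, 2056, 1888 and 2432 (-0.62, SE 0.179, limma adjusted p = 0.0444), again without overlap.

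Hnrnpk showed the largest positive difference at 90 days without passing, at 0.86 (limma adjusted p = 0.0586), with 9038, 8890, 6297 and 6903 normalised reads in wild type and 15932, 15183, 17016 and 9231 in Sod1G86R. At 30 days the smallest p-values belonged to Celf6 (-1.06, limma adjusted p = 0.14), Celf5 (-0.80, 0.199) and Tra2a (-0.47, 0.287). Celf6 at that age had 520, 494, 733 and 520 against 208, 289 and 262, without overlap. At 60 days they belonged to Celf6 (-0.71, 0.541), Srsf6 (-0.44, 0.541) and Ptbp1 (-0.73, 0.621), and at 105 days to Hnrnpc (0.57, 0.618), Hnrnpab (0.55, 0.618) and Elavl4 (0.49, 0.618), where Sod1G86R had 2 libraries.

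**Figure D4:**
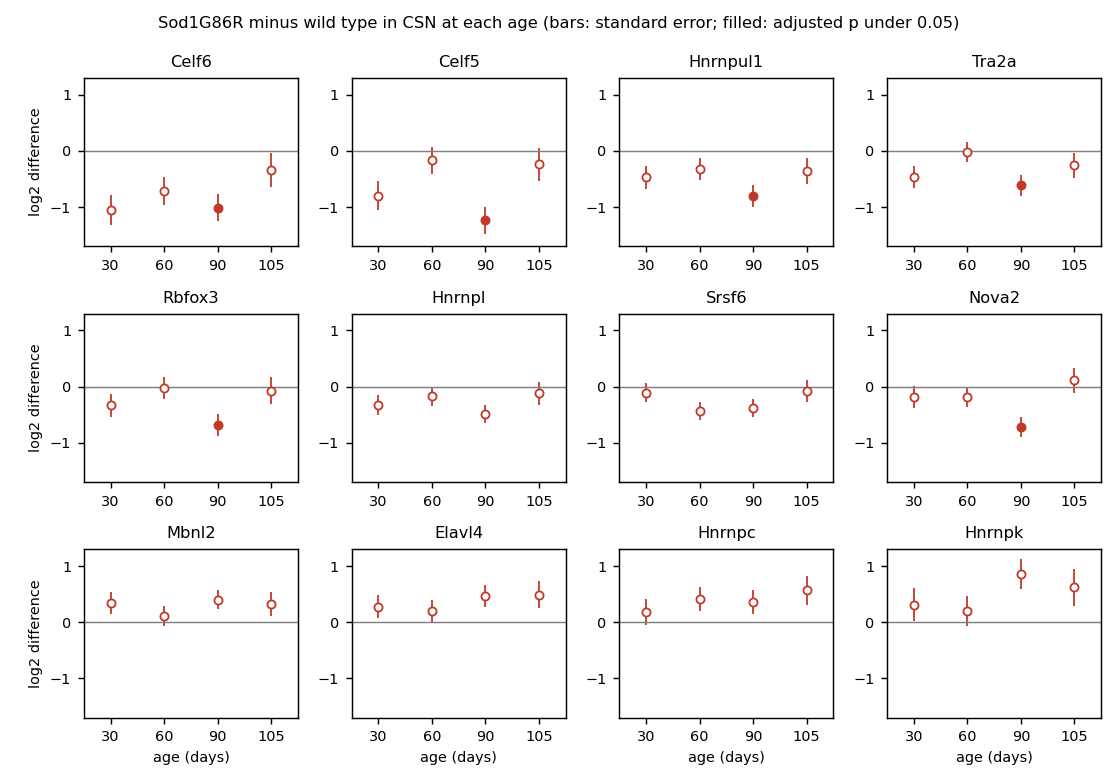
Log2 difference between Sod1G86R and wild type in CSN at 30, 60, 90 and 105 days for 12 genes (points, bars for the standard error), with filled points for an adjusted p under 0.05. Filled points appear at 90 days, for Celf6 (-1.01), Celf5 (-1.24), Hnrnpul1 (-0.80), Tra2a (-0.62), Rbfox3 (-0.69) and Nova2 (-0.72).

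Whether the genotype difference itself differed between ages was tested with a moderated F test in the same limma fit. No gene passed, of the 53 or of all genes (0%), with 2 of the 53 and 591 of all genes at an unadjusted p under 0.05, and edgeR and DESeq2 called 0 of the 53. The smallest unadjusted p-values were 0.0152 for Celf5 and 0.0401 for Nova2. The ages at which genes passed or failed in the plot by age are therefore not shown to differ. Mitochondrial share at 90 days was 8.35% ± 2.82 in wild-type and 5.19% ± 2.51 in Sod1G86R CSN (n = 4 each). With it as a covariate 0 of the 53 genes were called at 90 days. The CSN libraries of that age held 28.4 ± 4.48 M reads in wild type and 47.7 ± 12.4 M in Sod1G86R. The part of depth was not tested. Leaving out any 1 of wild-type replicates 7 and 9 or Sod1G86R replicates 3, 5 and 6 of that age also brought the count to 0.

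In control cells 0 of 53 genes passed between genotypes in the mean over ages, where 0.0716% of 20944 genes passed by limma (15 genes, with 2456 at an unadjusted p under 0.05). Among the 53, 8 had an unadjusted p under 0.05, and edgeR and DESeq2 on the recovered reads called 0. The smallest p-values belonged to Ptbp1 (-0.91, SE 0.279, limma adjusted p = 0.227), Srsf4 (-0.94, SE 0.327, 0.28) and Hnrnpf (-0.56, SE 0.2, 0.292). The median log2 difference of the 53 genes was -0.10, against -0.01 over all genes tested. Celf6 stood at 321 ± 193 normalised reads in wild-type and 216 ± 150 in Sod1G86R control cells, and Celf5 at 1441 ± 881 and 1347 ± 453. Hnrnpk had 24088 ± 9148 and 20918 ± 7760.

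At 30, 90 and 105 days 0 of 53 genes passed in control cells, where 0.00955% of all genes passed by limma at each age, and 5, 2 and 1 of the 53 had an unadjusted p under 0.05. At 60 days, with 2 wild-type and 3 Sod1G86R control libraries, Srsf4 and Ptbp1 were lower in Sod1G86R, where 1.4% of all genes passed (0.105% higher and 1.29% lower). Srsf4 had 377 and 366 normalised reads in wild type against 14.1, 9.3 and 7.19 (-3.18, SE 0.768, limma adjusted p = 0.0341), and its exons share 1532 bases with Gm12992, so that reads of the overlapping genes cannot be told apart. Ptbp1 had 1954 and 1405 against 522, 246 and 137 (-2.50, SE 0.655, limma adjusted p = 0.0492). Both genes separated the genotypes fully at this age. The glial marker level in these libraries was 13.9 ± 0.0875 in wild type and 12.2 ± 0.501 in Sod1G86R on the log2 scale, and the mitochondrial share 0.927% ± 0.165 and 2.08% ± 0.356. With either measure as a covariate 0 genes were called, as with edgeR, while DESeq2 called 5. Left out 1 at a time, 16 of 28 control libraries brought the count to 1 or 0. It was 0 without wild-type replicate 1 or 2 or Sod1G86R replicate 3 or 7 of that age.

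**Figure D5:**
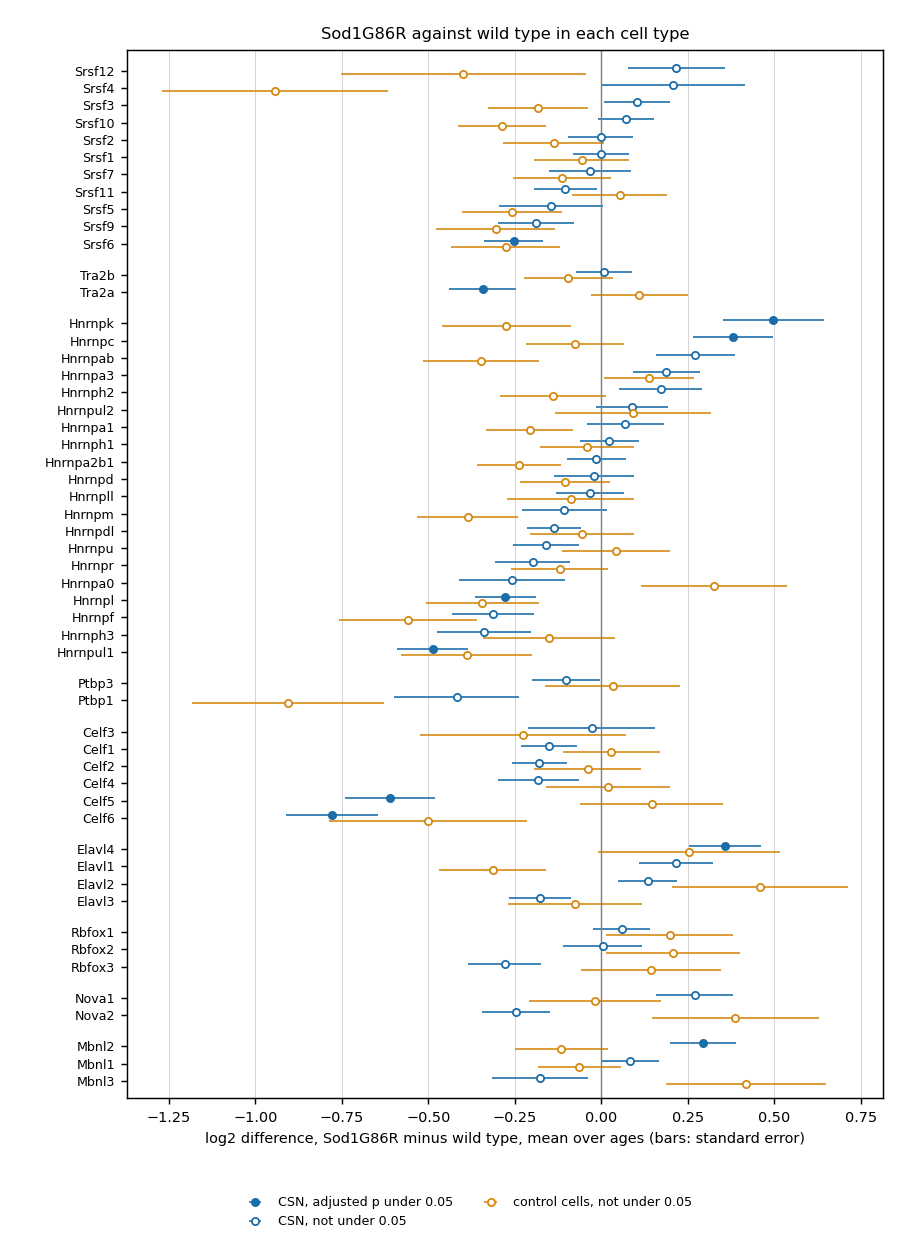
Log2 difference between Sod1G86R and wild type, as the mean over ages, for each of the 53 genes in CSN (blue) and control cells (orange), with bars for the standard error and filled points for an adjusted p under 0.05. The 10 filled points belong to CSN, from Celf6 (-0.78) to Hnrnpk (0.50), and no control-cell point is filled.

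The plot of genotype differences shows wider bars in control cells than in CSN. Across wild-type libraries the median coefficient of variation of the 53 genes was 31.7% in control cells and 20.4% in CSN. The genotype differences of the cell types were therefore compared directly, as the CSN difference minus the control-cell difference in 1 fit of all 57 libraries. Of 53 genes, 2 passed (3.77%), 1 higher and 1 lower, where 6.26% of all genes did (3.84% higher and 2.42% lower). Hnrnpk was higher by 0.77 (SE 0.241, limma adjusted p = 0.045) and Celf5 lower by 0.76 (-0.76, SE 0.243, limma adjusted p = 0.0494). The separate CSN and control-cell differences were 0.50 and -0.27 for Hnrnpk, and -0.61 and 0.15 for Celf5. Hnrnpab (0.62, limma adjusted p = 0.0507) lay just outside the threshold. For the other 8 genes that passed in CSN the difference between cell types did not pass, for example Celf6 (-0.28, SE 0.31, limma adjusted p = 0.595) and Hnrnpul1 (-0.10, SE 0.199, 0.79).

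Both calls lay close to the threshold. Left out 1 at a time, 33 of 57 libraries ended the call of Hnrnpk and 39 that of Celf5. With quantile normalisation 0 genes were higher and 2 lower, with TMM scaling 2 higher and 0 lower, and with mitochondrial share as a covariate none passed.

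Age was compared in wild-type mice as 105 against 30 days. In CSN 0 of 53 genes passed, as did 0 of all genes (0%), with 4 of the 53 and 1187 of all genes at an unadjusted p under 0.05 by limma. The smallest p-values were those of Hnrnpl (-0.61, SE 0.163, limma adjusted p = 0.517), Hnrnpll (-0.42, 0.728) and Celf3 (-0.76, 0.737). In wild-type control cells 0 of 53 passed, against 0.00955% of all genes by limma, with 2 of the 53 at an unadjusted p under 0.05. In neither cell type did edgeR or DESeq2 call a gene of the 53 (0) for age. Hnrnpab (-0.74, limma adjusted p = 0.328), Celf3 (-1.29, 0.335) and Mbnl1 (0.42, 0.425) had the smallest p-values there.

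The rest of the splicing machinery was followed through lists of 119 genes, of which 116 were tested in CSN. Between genotypes in CSN 23 passed (19.8%, against 19.1% of all genes), 17 higher and 6 lower in Sod1G86R, where 12.8% of all genes were higher and 6.31% lower. With quantile normalisation the split was 6 higher and 17 lower, and with TMM scaling 12 and 10, where 14% and 19.2% of all genes passed. With mitochondrial share as a covariate 1 was called, with glial level 13, with detected genes 10, and without the 90-day libraries 7. Of all genes, 0.131%, 13.4%, 8.29% and 6.07% were called in these fits. The count was 14 without Sod1G86R CSN replicate 6 at 30 days and 11 without replicate 13 at 105 days. In the U4/U6.U5 tri-snRNP, the particle that brings the catalytic RNAs, 5 of 14 genes rose and 0 fell, among them Txnl4a (0.40, limma adjusted p = 0.00868) and the helicase gene Snrnp200 (0.35, 0.00967). In the Prp19 complex and catalytic factors 3 of 16 rose, with Prpf19 at 0.72 (limma adjusted p = 0.000471) and Plrg1 at 0.43 (0.0264). Of the genes called, Snrnp200, Prpf31, Eftud2, Usp39 and Plrg1 lost their calls with quantile normalisation, while Txnl4a and Prpf19 kept theirs.

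Of the Sm core, the ring around the spliceosomal RNAs, 2 of 8 rose, Snrpn at 0.84 (limma adjusted p = 0.00065) and Snrpb at 0.55 (0.00336). Of the U2 snRNP with SF3, which recognises the branch point, 2 of 12 rose, Sf3a3 (0.38, limma adjusted p = 0.00622) and Sf3b2 (0.24, 0.0397), and of 3 U1 snRNP genes Snrpa rose (0.50, 0.0141). Of 10 genes for SR protein kinases and transport, 2 rose, the kinase gene Srpk2 (0.24, limma adjusted p = 0.0333) and the nuclear import gene Tnpo3 (0.28, 0.038). Quantile normalisation ended the calls of Sf3a3, Sf3b2, Snrpa, Srpk2 and Tnpo3, while Snrpn and Snrpb kept theirs. Over 13 other settings Eftud2 lost its call in 8, Tnpo3 in 7, and Sf3b2 and Srpk2 in 6 each. Of 12 SR-related genes 2 fell, Son (-0.37, limma adjusted p = 0.00809) and Sfswap (-0.45, 0.0268), and of 5 branch point and 3′ splice site factors U2af2 fell (-0.59, 0.0099). None of 10 ALS-linked RNA-binding protein genes tested passed, 2 of which (Hnrnpa1 and Hnrnpa2b1) are among the 53. Of that list Atxn2 stood at -0.19 (limma adjusted p = 0.124).

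Of 29 other splicing regulators tested, 2 rose and 3 fell, and Ptbp2 and Ddx17 (-0.33, limma adjusted p = 0.00516) had the smallest p-values. Ptbp2, the neuronal PTB paralogue that is not among the 53 genes, had 2290, 2971 and 4059 normalised reads in wild-type CSN and 1528, 1717 and 2897 in Sod1G86R CSN. The ranges overlapped, and the log2 difference was -0.62 (SE 0.0908, limma adjusted p = 0.000126). In control cells it stood at 3648 ± 918 and 2028 ± 690 normalised reads, and the difference of -0.83 (SE 0.175) had a limma adjusted p of 0.0516. The test of the difference between these values did not pass (0.21, limma adjusted p = 0.507). The gene lies at chr3:119718742-119784466 on the minus strand. Of 69 genes tested within 5 Mb of it, a window chosen after its values were seen, 58 lay below 0 in CSN and 32 passed as lower, as against 5 that passed as higher, where 6.31% of all genes passed as lower. In control cells 56 of 75 lay below 0 and 7 passed as lower, of 15 genes (0.0716%) that passed in all. The part of this stretch in the difference of Ptbp2 was not tested. The ratio of Ptbp2 to Ptbp1 per kb in wild type had a median of 5.21 in CSN (range 1.87 to 11.7) and 3.61 in control cells (0.712 to 18.4), with overlapping ranges.

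Between cell types in wild type 65 of 118 genes of these lists differed (55.1%, against 56.3% of all genes), 29 higher and 36 lower in CSN. With quantile normalisation the split was 48 higher and 26 lower, and with mitochondrial share as a covariate 7 were called and with glial level 15. Of all genes, 59.1%, 23.5% and 13.1% were called in these fits. The SR-related list had 10 of 12 higher and 0 lower, with Sfswap at 1.76 (limma adjusted p = 4.32e-12) and Srrm3 at 1.26 (2.15e-07). Of the core lists, 6 of 12 U2 and SF3 genes were lower and 0 higher, as were 6 of 16 Prp19 genes, 3 of 8 Sm genes and 2 of 3 U1 genes, and of 14 tri-snRNP genes 7 were lower and 1 higher. With quantile normalisation 4 tri-snRNP, 3 U2 and SF3 and 2 Prp19 genes were higher, and 4, 4 and 6 lower. Of 11 ALS-linked genes 3 were higher and 3 lower, among them Ang at -1.56. Of 30 other regulators 11 were higher and 7 lower, among them Qk at -2.41 (limma adjusted p = 1.37e-13), the quaking gene that is abundant in glia, and Rbm25 at 0.88 (4.91e-08).

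Between genotypes in control cells 0 of 118 passed by limma, with 10 at an unadjusted p under 0.05, and edgeR called 0 and DESeq2 1. For 4 of 118 genes (3.39%, where 3.84% of all genes were higher and 2.42% lower) the genotype difference in CSN was higher than that in control cells, Prpf19 (1.59, limma adjusted p = 0.0113), Sf3a3 (0.75, 0.0176), Puf60 (1.03, 0.0434) and Nono (0.42, 0.0494). None was lower (0). With quantile normalisation 1 was higher and 1 lower, with mitochondrial share or detected genes as a covariate 0 were called, and 39 of 57 libraries, left out 1 at a time, moved the count by over 1.5 times.

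Several of the 53 genes have near copies or shared stretches elsewhere in the genome. The sources used here do not give the authors' handling of reads that match more than 1 place. By transcript sequences at least 95% identical over 150 or more bases, Hnrnpa3 had 36 matches, Tra2b 19, Hnrnpa1 10, Hnrnpf 8, Srsf3 4 and Hnrnpk 2. Of the 19 for Tra2b, 5 were pseudogenes. The rest were other genes, such as Ankfy1, Cct6a and Uchl5, and a match over such a stretch does not make them copies. The values of these genes are uncertain to that extent. The kit named in the protocol does not mark strand, so genes with overlapping exons share reads. Beside Srsf4 these include Hnrnpm with March2 (1169 bases), Hnrnpab with Phykpl (809), Hnrnpu with Cox20 (804), Celf5 with Gm16105 (543) and Hnrnpk with Rmi1 (330).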

How the data were processed

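RNA was measured in 57 libraries. Per the series' design text, total RNA was amplified with the SMART-Seq kit version 4 (11 cDNA cycles and 12 library cycles), sequenced on a HiSeq 4000 as paired 50-base reads and aligned with STAR 2.7.0 to Ensembl 87 annotation. edgeR and mm10 are named, with no role, in the submitters' processing notes. The deposited table gives read counts divided by size factors by the authors, a signal in normalised reads. All values (100%) were whole multiples of 1 read within 0.001, so reads could be recovered. Amplified reads are not independent molecules.

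Values were tested as log2(value + 34.6), where 34.6 is 1 ppm of the median library total. A gene entered a fit if 3 or more of its libraries reached 34.6. limma 3.58.1 (R 4.3.3) was fitted with group means as coefficients and a prior that was trended and robust, separately for CSN, control cells and both, with Benjamini-Hochberg adjustment over all genes and calls under 0.05. Fold changes on this scale understate changes of low genes. Ages are the numbers in the titles, which state no unit and were taken as days. Coordinates and exon lengths came from GRCm38 (GENCODE M21), promoters from RefSeq, and figures from matplotlib 3.10.9. Recovered reads were also tested with edgeR 4.0.16 and DESeq2 1.42.0. Other alternatives were pseudocounts, filters, scalings, a replicate block, covariates and leaving out libraries. The scripts were tested on simulated data.

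The genes and lists were chosen with earlier results of these data known. In each comparison the 6 passing genes with the largest rise and fall are named, or the 3 genes of smallest p if under 3 passed, with per-library values for the first 3 of each direction between genotypes in CSN and between cell types. Families other than Srsf and Hnrnp are given gene by gene, and each list by up to 2 genes with the smallest p. The values of 1 gene of these lists are not reported here.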

Additional observations from a re-analysis of the deposited data

Results flagged for a closer look

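Of 78 groups of 4 libraries examined for the named genes, 6 held a library whose gap to the nearest other exceeded Dixon's 95% critical value, where chance gives about 1 in 20. Hnrnpk was named in both comparisons, so the 78 count its wild-type CSN groups again and the distinct groups were fewer. In CSN, the library labelled wild type 105 days replicate 13 was highest for Hnrnpc, at 6192.7 normalised reads against 4345.9 to 4519.0 in the other 3, and lowest for Elavl3, at 2071.1 against 3086.1 to 3263.2. For Celf6 the Sod1G86R library at 90 days replicate 8 was highest at 515.4 (others 232.3 to 259.6), and so was the wild-type library at 30 days replicate 4 at 732.9 (others 493.8 to 520.5). For Hnrnpul1 the wild-type library at 30 days replicate 1 stood at 1215.6 (others 774.2 to 842.9). In control cells the wild-type library at 30 days replicate 1 was lowest for Hnrnpk, at 19645.3 (others 29302.4 to 31193.1).

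The genotype difference in CSN minus that in control cells passed the limma test for Celf5, at -0.76 on the log2 scale, and for Hnrnpk, at 0.77. Both are given with their values per cell type above.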

How the results depend on the processing

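Between genotypes in CSN, 10 of the 53 genes were called. Without a filter on low values 5 were called, with quantile normalisation 17 and with mitochondrial share as a covariate 0. With the number of detected genes as a covariate 5 were called, and without the 90-day libraries 1. Of all genes, 4.89%, 14%, 0.131%, 8.29% and 6.07% were called in these fits. On recovered reads edgeR and DESeq2 called 13 each (3737 and 4699 of all genes). With 1 library left out the count ranged from 4 to 13. Celf6, Celf5 and Hnrnpul1 kept their calls in all 29 such fits. Without Sod1G86R CSN 105 days replicate 13, Hnrnpk, Hnrnpc, Elavl4, Mbnl2, Tra2a, Hnrnpl and Srsf6 all lost theirs. For Hnrnpk, Elavl4 and Tra2a that was the only fit that ended the call. Hnrnpc lost its call in 2 of the 29 fits (highest adjusted p 0.0845), Hnrnpl in 2 (0.0641), Mbnl2 in 7 (0.0688) and Srsf6 in 13 (0.145). At 90 days in CSN 6 were called, 0 without a filter, 0 with mitochondrial share and 0 to 9 with 1 library left out. For the genotype difference between cell types, 2 were called, 5 with DESeq2, 0 without a filter, 0 with mitochondrial share, 0 with detected genes and 0 to 6 with 1 library left out. Between cell types 38 were called, and 36 to 40 with 1 library left out. With mitochondrial share 9 were called (where Hnrnpk and Hnrnpab turned to 0.033 and 0.050) and with glial marker level 16. Of all genes, 56.3% were called in the main fit, 23.5% with mitochondrial share and 13.1% with glial marker level. Of the 9 and the 16, 6 and 14 were among the 38. The cause of these changes was not tested. Without a filter more genes entered the test, in CSN 44478 against 19093, and the part of that number was not tested either. The following counts were recomputed after the data were seen. In control cells at 60 days 2 of the 53 were called, 0 with the smaller pseudocount, without a filter, with quantile normalisation, with edgeR or with any of the 3 covariates, 1 with the stricter filter, TMM scaling or the replicate block, 5 with DESeq2, and 0 to 3 with 1 library left out. Between cell types in Sod1G86R 25 were called, and 7 with glial marker level, against 11.2% of all genes. Of the other splicing genes 23 were called between genotypes in CSN, 12 without a filter, 37 with the replicate block, 1 with mitochondrial share, 10 with detected genes, 13 with glial marker level, 7 without the 90-day libraries and 11 to 34 with 1 library left out. Between cell types 65 were called, 7 with mitochondrial share and 15 with glial marker level. In control cells 0 were called, 1 with the larger pseudocount, the stricter filter, DESeq2 or the replicate block and 0 to 1 with 1 library left out. For the difference between cell types 4 were called, 7 with the smaller pseudocount or edgeR, 2 without a filter or with quantile normalisation, 12 with DESeq2, 0 with mitochondrial share or detected genes and 2 to 14 with 1 library left out. The other recomputed counts were within 1.5 times their first value, or stayed at 0. Counts over single families and lists were recomputed only between genotypes in CSN and between cell types in wild type, without leaving out single libraries. Where a group was left with 1 library, that library was assumed to vary like the other groups.

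Pairing was checked by the correlation of same-numbered libraries after removal of group means. In CSN 5 of 9 wild-type and Sod1G86R pairs were over 0.1 (range -0.05 to 0.49, median 0.25), in control cells 2 of 7, and between cell types 7 of 25. The correlation that limma estimated within a replicate block was 0.27 in CSN, 0.05 in control cells and 0.04 between cell types. Same-numbered CSN libraries thus shared some variation. Libraries of unlike number were not compared, so the number was not shown to pair libraries. With the number as a replicate block 13 genes were called between genotypes in CSN, 3 for the difference between cell types and 38 between cell types. In CSN 4862 of all genes were called with the block and 3643 without it. By depth Srsf4, which reached 35 normalised reads in 33 of 57 libraries, is the least precise of the 53.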
